A study of Macaca fascicularis with 6 samples.

Results

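The genes described here are those whose name begins with RAB and a digit: 70 of the 28164 genes in a count table from oocytes of the cynomolgus monkey (Macaca fascicularis). Of the 70, 61 encode Rab GTPases and 9 carry a RAB name but encode proteins that act on Rabs: RAB3GAP1, RAB3GAP2, RAB3IP, RAB3IL1 and RAB11FIP1 to RAB11FIP5. RNA was sequenced from 3 groups with 2 libraries each. IVM MII oocytes had matured in culture to the arrest at the second meiotic metaphase. IVO MII oocytes had come to the same arrest inside the animal. GV oocytes were immature and still had their germinal vesicle, the large nucleus of meiotic prophase. All 3 groups were labelled wild type, stripped and not treated. The labels do not say how many oocytes or animals went into a library, or how old the animals were.

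Rab proteins are small GTPases that mark the membranes of the cell's compartments and direct vesicle budding, movement, tethering and fusion. An exchange factor loads a Rab with GTP and switches it on, and effectors such as tethers and motor adaptors then bind it. A GTPase activating protein switches it off, and a GDP dissociation inhibitor (GDI) extracts the prenylated, inactive Rab from the membrane. In mouse oocytes, vesicles carrying RAB11A organise the actin network that moves the spindle, and RAB27A and RAB3A act on cortical granules, the secretory vesicles that block entry of further sperm after fertilisation.

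Library totals ran from 27707021 to 35515139 counts, and levels are given as CPM, counts scaled to the library size with TMM factors, for replicates 1 and 2 of each group in that order. A value after ± is the SD over n = 2 libraries for a level and the standard error of the fit for a log2 fold change. A gene was called at an edgeR adjusted p under 0.05, and such p-values measure the spread between these libraries, which may be technical. Each level is a share of the RNA that oligo-dT primed in that library. It gives neither the amount of a transcript per oocyte nor how well oligo-dT primed it. For the sums of markers below, fewer cells and less RNA per cell cannot be told apart. All 15 oocyte markers had counts, and together they reached 19120 to 21505 CPM in IVM MII, 18002 to 23094 CPM in IVO MII and 37024 to 44887 CPM in GV. Of 17 cumulus and granulosa markers 14 were in the table. They summed to 78.9 to 80.2 CPM in IVM MII, 34.3 to 51.4 CPM in IVO MII and 31.4 to 38.6 CPM in GV. STAR, FOXL2, AMHR2 and INHA had 0 counts in all 6 libraries, while GREM1, HAS2, TNFAIP6 and FSHR had counts in each. FSHR had 2.51 to 4.35 CPM in a library and was called in no comparison. TNFAIP6 had 23.7 and 32.2 CPM in IVM MII, 13.4 and 13.9 CPM in IVO MII and 24.5 and 19.4 CPM in GV. It was called lower in IVO MII than in either other group. GREM1 is an oocyte-induced cumulus gene. It had 32.8 and 25.3 CPM in IVM MII, 4.83 and 3.19 CPM in IVO MII and 5.11 and 2.84 CPM in GV, and was called higher in IVM MII than in either other group. HAS2 makes hyaluronan. It was called higher in both MII groups than in GV, at 20.3 and 17.1 CPM in IVM MII, 12.7 and 31.6 CPM in IVO MII and 5.07 and 4.90 CPM in GV. The 9 theca, stroma and endothelium markers in the table, mainly VWF, summed to 150.4 to 159 CPM, 83.1 to 86.7 CPM and 326 to 384 CPM in IVM MII, IVO MII and GV, and KDR had 0 counts. VWF averaged 103, 43.9 and 312 CPM in IVM MII, IVO MII and GV and was called lower in both MII groups. PECAM1 went the other way, at 19.4, 15.6 and 9.33 CPM, and was called higher in both MII groups. CDH5, at 31.3, 24.7 and 32.8 CPM, was called in no comparison. Blood markers, 7 in the table, summed to 5.71 to 6.11 CPM, 4.38 to 7.26 CPM and 13.4 to 13.5 CPM, with CD3E and HBB at 0. Most of this sum was CSF1R, at 4.49 to 5.37 CPM in IVM MII, 4.11 to 6.68 CPM in IVO MII and 13.2 to 13.4 CPM in GV and called lower in both MII groups, and MS4A1, at most 0.994 CPM, was called higher in IVM MII than in GV. These sums move with the groups, and their part in the results on RAB genes was not tested.

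Enough counts for a test were found for 56 of the 70 RAB genes, 48 of them GTPases. Levels per kilobase of exon allow for exon length when genes are compared, but not for reads lost at exon junctions or for uneven coverage. On this scale 38 of the 61 GTPase genes averaged at least 1 CPM per kb over the 6 libraries. RAB11A led with 440.3 CPM per kb, ahead of RAB7A at 138, RAB18 at 75, RAB1A at 62.2 and RAB2A at 60. These 5 genes belong to recycling endosomes, late endosomes, lipid droplets, the ER to Golgi step and the Golgi. The 5 highest genes were also picked separately for each library, and they were not always these 5. In GV replicate 1, for example, RAB27A at 72.7 CPM per kb stood above RAB2A at 28.8. The 5 picked per library made up 80.03% (replicate 1) and 78.3% (replicate 2) of the summed GTPase level per kb in GV. The corresponding shares were 60.8% and 61.1% for IVO MII, against 61.1% and 68.6% for IVM MII. The GV libraries thus had more of their RAB RNA in a few genes than any MII library.

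**Figure D1:**
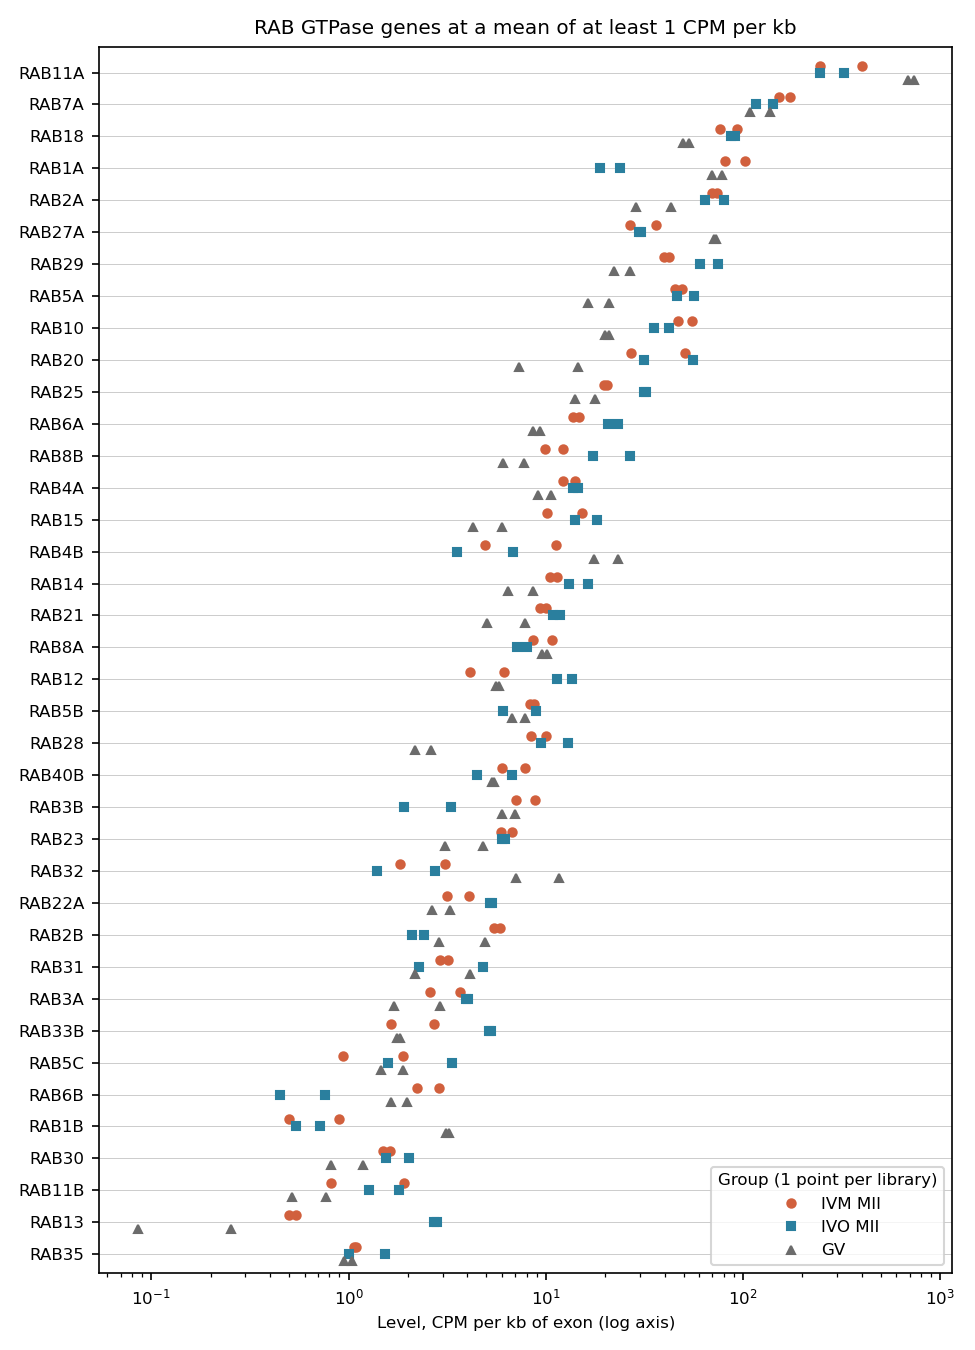
Level of each RAB GTPase gene with a mean of at least 1 CPM per kb of exon (log axis), 1 point per library for IVM MII, IVO MII and GV, ordered by the mean over the 6 libraries. RAB11A lies to the right of every other gene in all 6 libraries, and RAB1A shows 2 low IVO MII points beside IVM MII and GV points that lie close together.

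Against GV oocytes, more RAB genes were higher than lower in both MII groups, by edgeR's quasi-likelihood test. In IVM MII against GV, 15 of the 56 tested RAB genes rose and 10 fell. That is 44.6% of them, where 50.3% of all tested genes were called, 25.6% as higher and 24.7% as lower. In IVO MII against GV, 22 rose and 15 fell. That is 66.1%, where 58.5% of all tested genes were called, 28.1% as higher and 30.5% as lower. Both shares lie near the background, and the number of calls is not read as a result about the RAB genes. The same background applies to the counts by role and by list of regulators below, which are likewise not read as results. The median log2 fold change of the tested RAB genes was 0.31 in IVM MII against GV, beside 0.06 over all genes, and 0.40 in IVO MII against GV, beside -0.07 over all genes. In IVO MII against GV the RAB median rests on single libraries: it was -0.08 without IVO MII replicate 2 and 0.58 without IVO MII replicate 1. Both comparisons use the same GV libraries, so their results are not independent. Called higher in both MII groups were 12 genes (RAB18, RAB2A, RAB5A, RAB10, RAB20, RAB15, RAB28, RAB29, RAB6A, RAB8B, RAB13 and RAB3GAP1). Called lower in both were 8 (RAB11A, RAB27A, RAB4B, RAB32, RAB1B, RAB40C, RAB19 and RAB3IP) and none was called in opposite directions. Over all tested genes, 18.7% were called higher in both, 19.5% lower in both and 1.30% in opposite directions, so nothing particular to the RAB genes is read from the overlap. Scaling to library totals moves the median of all genes in IVM MII against GV to 0.35. The RAB genes then split into 24 higher and 7 lower there, and 63.7% of the calls over all genes were higher, beside 50.9% with TMM. The number lower in IVM MII than in GV was 6 without GV replicate 2.

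**Figure D2:**
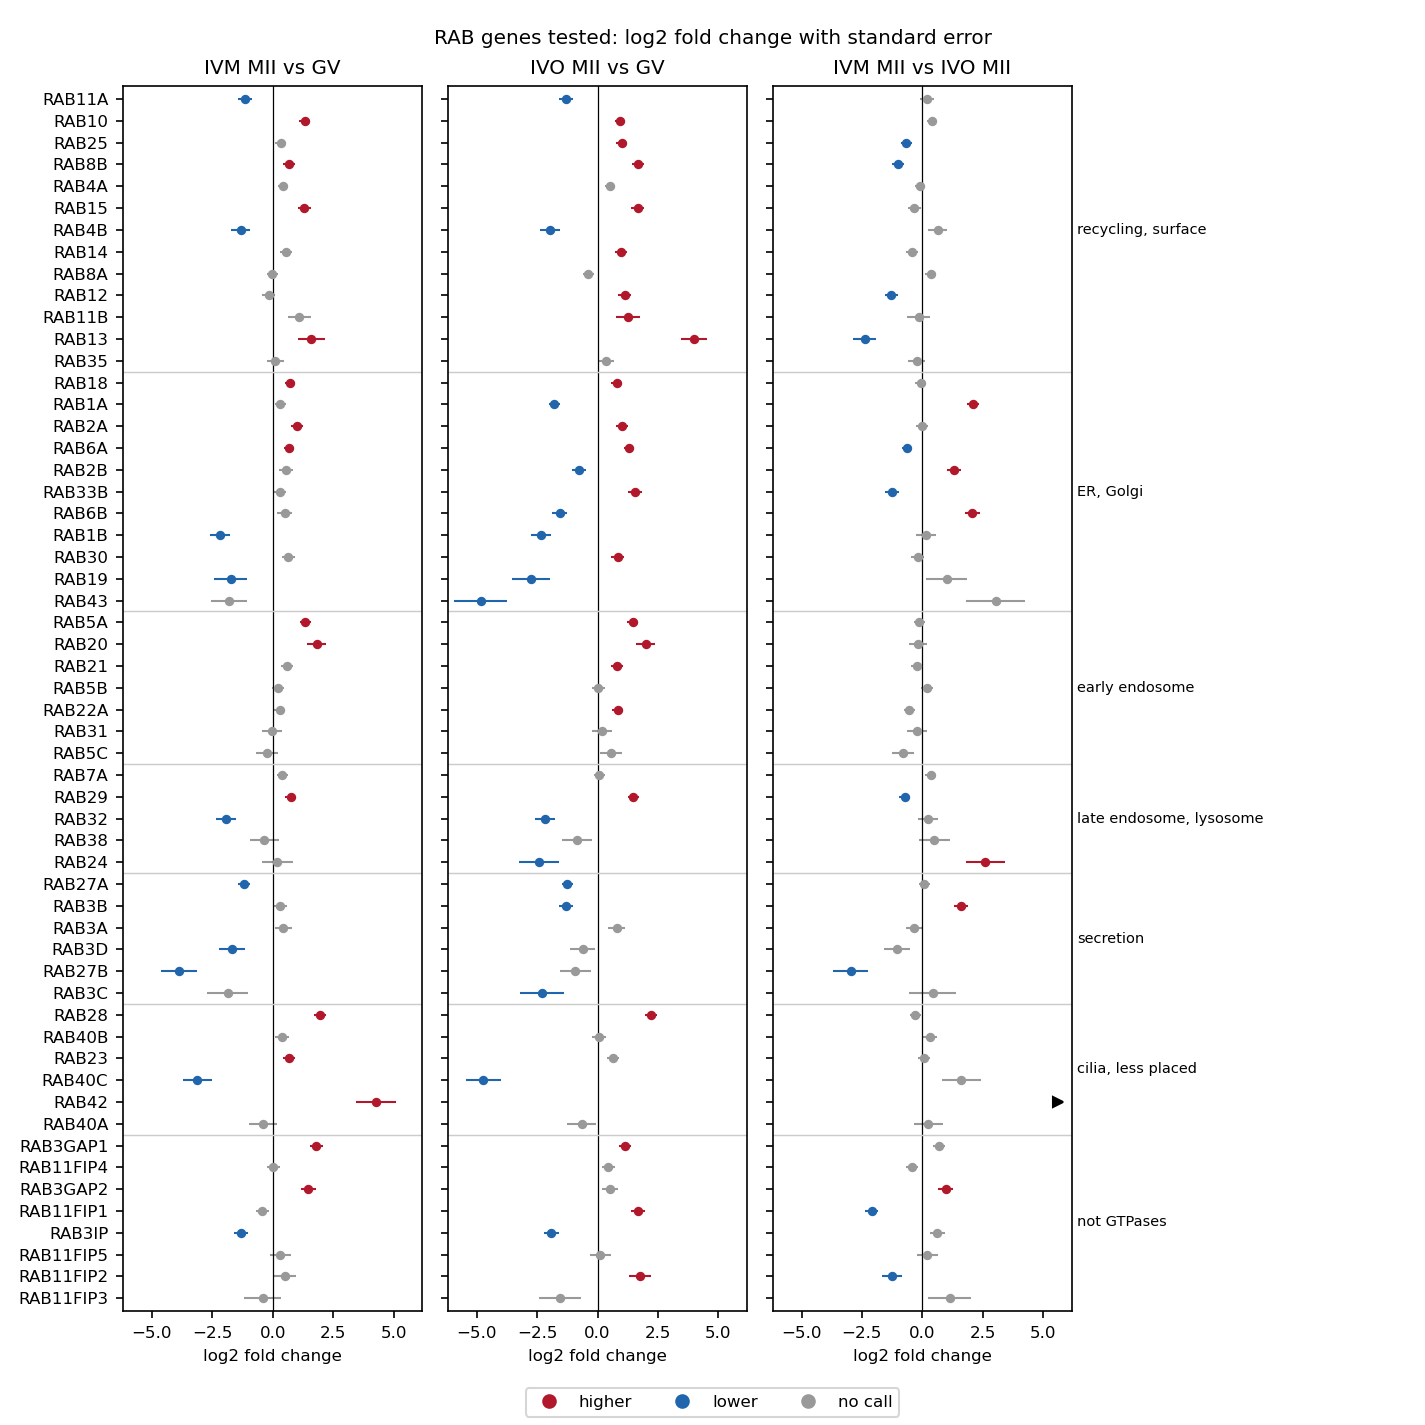
Log2 fold change with its standard error for the tested RAB genes in IVM MII against GV, IVO MII against GV and IVM MII against IVO MII, grouped by role, with red for genes called higher, blue for lower and grey for no call. RAB42 is left out of the middle panel, where both groups are at or under 3 counts, and its arrow in the right panel marks a value off the scale. RAB11A lies left of 0 in both panels against GV and near 0 between the MII groups.

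RAB11A is the marker GTPase of recycling endosomes. It was the most abundant RAB transcript per kb and was lower in both MII groups than in GV. It stood at 632 and 1032 CPM in the IVM MII libraries, 627 and 831 CPM in IVO MII and 1767 and 1874 CPM in GV. The GV libraries were above all 4 MII libraries, and the IVM MII and IVO MII ranges overlapped. Its mean was 832 ± 283 CPM in IVM MII, 729 ± 144 CPM in IVO MII and 1820.3 ± 75.9 CPM in GV (SD, n = 2 each). The log2 fold change was -1.13 ± 0.29, edgeR adjusted p = 0.00717, in IVM MII against GV, and -1.32 ± 0.29, edgeR adjusted p = 0.00226, in IVO MII against GV. Between IVM MII and IVO MII it was 0.19 ± 0.29, edgeR adjusted p = 0.66. RAB11A was not called in IVM MII against GV without IVM MII replicate 1 (log2 fold change -0.78), edgeR adjusted p = 0.0655. In the macFas5 genome of the files the gene lies on chromosome 7, 43419795 to 43441388, plus strand.

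RAB11A took 21.2 and 30.5% in IVM MII, 21.7 and 25.7% in IVO MII and 49.1 and 51.4% in GV of all RAB GTPase counts in the library. Wilson 95% intervals of these shares were at most 0.602 percentage points wide and cover counting error only; the spread between the IVM MII libraries was larger. Summed over the 61 GTPase genes, the level was 2976 and 3385 CPM in IVM MII, 2889.7 and 3235 CPM in IVO MII and 3601 and 3649 CPM in GV, lower in the MII libraries than in GV. This order turns round for IVM MII with library totals, where the means were 3569 CPM in IVM MII and 3329.8 CPM in GV. Without RAB11A the sum was 2344 and 2353 CPM in IVM MII, 2263 and 2405 CPM in IVO MII and 1834 and 1775 CPM in GV, so the other RAB GTPases together were higher in every MII library than in either GV library. With library totals the means without RAB11A were 2649 CPM in IVM MII, 2263 CPM in IVO MII and 1658 CPM in GV, in the same direction against GV.

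**Figure D3:**
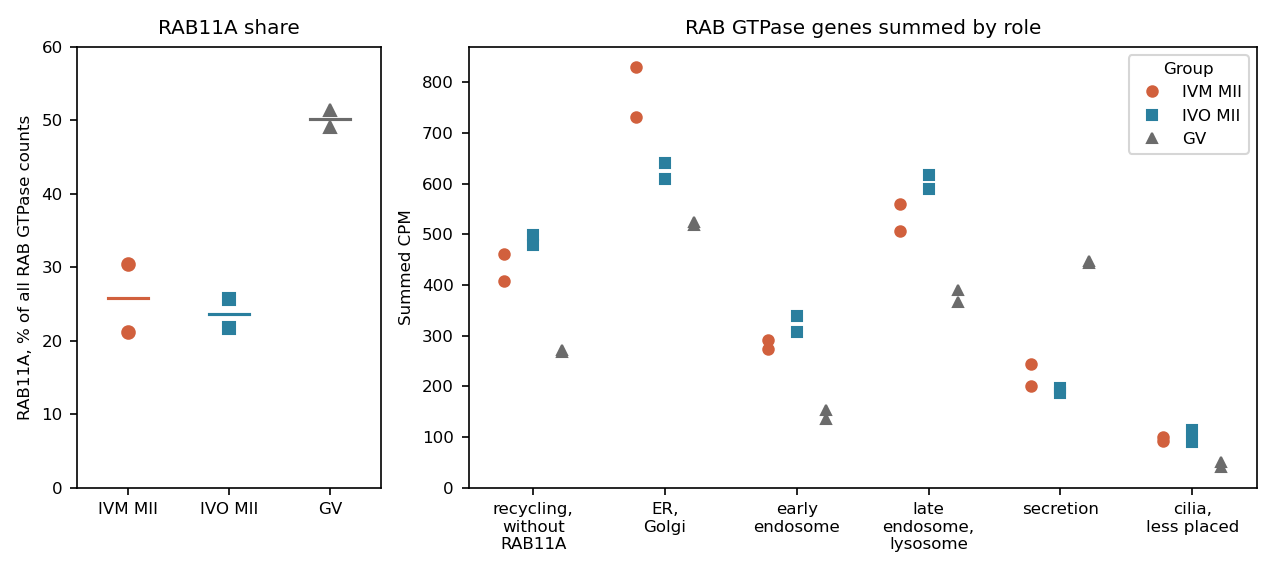
Left, RAB11A as a share of all RAB GTPase counts, 1 point per library and a line at the group mean; right, summed CPM of RAB GTPase genes by role, with RAB11A left out of the recycling sum. RAB11A takes 21.2% to 30.5% in MII libraries and 49.1% to 51.4% in GV, and the secretion sum, most of it RAB27A, lies lower in MII libraries than in GV.

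Recycling endosomes return receptors and membrane to the cell surface, and the genes of this role did not all follow RAB11A. All 13 were tested, and 4 were higher and 2 lower in IVM MII than in GV. In IVO MII 8 were higher and 2 lower than in GV, and 4 were lower in IVM MII than in IVO MII. The shares called were 46.2, 76.9 and 30.8%, where 50.3, 58.5 and 24.6% of all tested genes were called. RAB10 carries cargo such as glucose transporters to the plasma membrane. It had 209 and 177 CPM in IVM MII, 134 and 159.9 CPM in IVO MII and 79.1 and 76 CPM in GV oocytes, with both MII groups above GV and the log2 fold changes 1.32 ± 0.22, edgeR adjusted p = 0.000553, for IVM MII, and 0.92 ± 0.22, edgeR adjusted p = 0.00339, for IVO MII. RAB15 is a recycling endosome GTPase. It had 50.6 and 33.5 CPM in IVM MII, 46.5 and 60.04 CPM in IVO MII and 14.1 and 19.7 CPM in GV oocytes, and log2 fold changes against GV of 1.31 ± 0.28 in IVM MII and 1.65 ± 0.28 in IVO MII. RAB8B acts in transport to the surface. It had 48.9 and 60.5 CPM in the IVM MII libraries, 133 and 86.4 CPM in IVO MII and 38.6 and 29.99 CPM in GV. Its IVO MII libraries were above all others, with log2 fold changes of 1.68 ± 0.26, edgeR adjusted p = 0.000241, in IVO MII against GV and -1.0 ± 0.26, edgeR adjusted p = 0.016, in IVM MII against IVO MII. RAB25 is a relative of RAB11A best known from epithelia. It had 22.9 and 23.8 CPM in IVM MII, 37.6 and 36.5 CPM in IVO MII and 16.4 and 20.7 CPM in GV oocytes, and was higher in IVO MII than in GV by 1.0 ± 0.23 on the log2 scale, with a value of -0.67 ± 0.22, edgeR adjusted p = 0.0488, in IVM MII against IVO MII. RAB12 steers transferrin receptor to lysosomes. It had 7.54 and 11.2 CPM in IVM MII, 20.9 and 24.9 CPM in IVO MII and 10.7 and 10.2 CPM in GV oocytes. Here IVM MII and GV overlapped while IVO MII stood higher, with -1.29 ± 0.27, edgeR adjusted p = 0.00532, in IVM MII against IVO MII. RAB4B, of the fast recycling route, went the other way with 19.2 and 8.41 CPM in the IVM MII libraries, 6.07 and 11.6 CPM in IVO MII and 29.7 and 39.4 CPM in GV, log2 fold changes of -1.32 ± 0.39 in IVM MII and -1.96 ± 0.40 in IVO MII against GV. RAB14 acts between endosomes and the Golgi. It had 31.4 and 34.3 CPM in IVM MII, 39.3 and 49 CPM in IVO MII and 25.8 and 19.3 CPM in GV oocytes, and was called higher in IVO MII than in GV at 0.97 ± 0.24. RAB11B, the close relative of RAB11A, had at most 3.40 CPM in any library and was called higher in IVO MII than in GV at 1.26 ± 0.48. The other 3 passed the test in no comparison. RAB4A is the relative of RAB4B. It had 37.8 and 33.01 CPM in IVM MII, 36.8 and 39.2 CPM in IVO MII and 24.4 and 28.6 CPM in GV oocytes. RAB8A is the relative of RAB8B. It had 25.7 and 20.7 CPM in IVM MII, 17.1 and 19.3 CPM in IVO MII and 24.3 and 22.95 CPM in GV oocytes. RAB35 acts in recycling and cytokinesis. It had 3.19 and 3.12 CPM in IVM MII, 2.97 and 4.48 CPM in IVO MII and 3.06 and 2.81 CPM in GV oocytes.

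RAB13 acts at cell junctions. It was scarce, with 28 and 21 counts in IVM MII, 87 and 95 counts in IVO MII and 3 and 9 counts in GV. Every IVO MII library was above every IVM MII library, and those were above GV, with log2 fold changes of 1.60 ± 0.57 in IVM MII against GV, 3.99 ± 0.55 in IVO MII against GV and -2.39 ± 0.47, edgeR adjusted p = 0.00392, in IVM MII against IVO MII. RAB13 had a log2 fold change of 2.57 without GV replicate 2 in IVM MII against GV and 4.96 without GV replicate 2 in IVO MII against GV. RAB13 was not called in IVM MII against GV without GV replicate 1, IVM MII replicate 1 or IVM MII replicate 2 (log2 fold changes 1.03 to 1.67). Other calls among the recycling genes that rest on single libraries were as follows. RAB8B was not called in IVM MII against GV without GV replicate 2, IVM MII replicate 1 or IVM MII replicate 2 (log2 fold changes 0.51 to 0.86), nor in IVM MII against IVO MII without IVM MII replicate 1, IVM MII replicate 2 or IVO MII replicate 1 (log2 fold changes -1.16 to -0.66). RAB25 was not called in IVM MII against IVO MII without GV replicate 1, GV replicate 2, IVM MII replicate 1, IVM MII replicate 2, IVO MII replicate 1 or IVO MII replicate 2 (log2 fold changes -0.69 to -0.61). RAB12 was not called in IVM MII against IVO MII without IVM MII replicate 1 (log2 fold change -1.0). RAB4B was not called in IVM MII against GV without GV replicate 2 or IVM MII replicate 2 (log2 fold changes -1.10 to -0.84). Its log2 fold change there was -2.0 without IVM MII replicate 1. RAB14 was not called in IVO MII against GV without GV replicate 2 (log2 fold change 0.78). RAB11B was not called in IVO MII against GV without GV replicate 1, GV replicate 2 or IVO MII replicate 2 (log2 fold changes 0.99 to 1.58).

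Between the maturation routes, the lowest adjusted p among the RAB genes was that of RAB1A, the GTPase of ER to Golgi transport. RAB1A had 222 and 280.0 CPM in the IVM MII libraries, 51.96 and 65.1 CPM in IVO MII and 214 and 192 CPM in GV. The IVO MII libraries were the low ones, while IVM MII and GV libraries lay side by side, with IVM MII above. It was 4.29-fold higher in IVM MII than in IVO MII (log2 fold change 2.10 ± 0.24, edgeR adjusted p = 0.000126) and lower in IVO MII than in GV (-1.79 ± 0.23, edgeR adjusted p = 6.96e-05), and the value in IVM MII against GV was 0.31 ± 0.23, edgeR adjusted p = 0.278. The call between the routes held without each library in turn. RAB1A shares 5.36% of its exon length with CEP68 on the opposite strand and counting did not use strand; CEP68 had 820 to 992 counts in IVM MII, 720 to 798 in IVO MII and 413 to 456 in GV, against at least 1345 for RAB1A in the IVO MII libraries. The gene lies on chromosome 13, 44861119 to 44906700, plus strand. Its relative RAB1B was scarcer, at 1.53 and 0.852 CPM in IVM MII, 0.927 and 1.22 CPM in IVO MII and 5.51 and 5.34 CPM in GV oocytes, and was lower in both MII groups than in GV, with log2 fold changes of -2.18 ± 0.40 in IVM MII and -2.33 ± 0.41 in IVO MII.

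Of 17 ER and Golgi genes 11 were tested, and 3 were higher and 2 lower in IVM MII than in GV. In IVO MII 5 were higher and 6 lower than in GV, and 3 were higher and 2 lower in IVM MII than in IVO MII. That is 45.5, 100 and 45.5% called, where 50.3, 58.5 and 24.6% of all tested genes were called. The summed level of the 17 was 731 and 830.2 CPM in IVM MII, 609.8 and 641 CPM in IVO MII and 524 and 518 CPM in GV. RAB6B is the rarer relative of the Golgi GTPase RAB6A. It had 16.1 and 12.3 CPM in IVM MII, 2.51 and 4.24 CPM in IVO MII and 9.16 and 11.02 CPM in GV oocytes, so that IVO MII was again lowest (2.07 ± 0.32, edgeR adjusted p = 0.000944, in IVM MII against IVO MII). RAB2B is a relative of the Golgi GTPase RAB2A. It had 16.9 and 18.2 CPM in IVM MII, 7.53 and 6.55 CPM in IVO MII and 15.2 and 8.92 CPM in GV oocytes. For RAB2B the log2 fold change was 1.32 ± 0.30, edgeR adjusted p = 0.00777, in IVM MII against IVO MII. RAB33B, a Golgi GTPase that binds an autophagy protein, ran the other way at 6.43 and 10.7 CPM in the IVM MII libraries, 20.2 and 20.6 CPM in IVO MII and 6.88 and 7.13 CPM in GV. Its IVO MII libraries were the highest (-1.26 ± 0.29, edgeR adjusted p = 0.00828, in IVM MII against IVO MII, and 1.54 ± 0.29 in IVO MII against GV). Others of this role were higher after either route. RAB18 is known from lipid droplets and the ER. It had 236 and 289 CPM in IVM MII, 283 and 269.7 CPM in IVO MII and 165 and 154 CPM in GV oocytes. For RAB18 the log2 fold changes were 0.72 ± 0.22 in IVM MII and 0.79 ± 0.22 in IVO MII against GV. RAB2A had 154 and 147 CPM in IVM MII, 135 and 168 CPM in IVO MII and 60.2 and 90.3 CPM in GV oocytes. For RAB2A the log2 fold changes were 1.0 ± 0.25, edgeR adjusted p = 0.00566, in IVM MII and 1.01 ± 0.25, edgeR adjusted p = 0.00419, in IVO MII against GV. RAB6A acts in retrograde transport to and through the Golgi. It had 56.95 and 53.6 CPM in IVM MII, 89.7 and 80.3 CPM in IVO MII and 36.1 and 33.6 CPM in GV oocytes. For RAB6A the log2 fold changes were 0.67 ± 0.21 in IVM MII and 1.29 ± 0.21 in IVO MII against GV. In IVM MII against IVO MII RAB6A was at -0.62 ± 0.21, edgeR adjusted p = 0.0472. RAB30 is a Golgi GTPase. It had 19.6 and 18.1 CPM in IVM MII, 18.7 and 24.4 CPM in IVO MII and 9.87 and 14.3 CPM in GV oocytes, and was called higher in IVO MII than in GV at 0.84 ± 0.27.

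RAB43 and RAB19, both near the limit of detection, were lower in IVO MII than in GV. RAB43 acts in ER and Golgi transport. It had 9 and 5 counts in IVM MII, 1 and 0 counts in IVO MII and 19 and 18 counts in GV, 34.7-fold fewer per library size in IVO MII than in GV, with a 95% counting interval of 5.86 to 1408. Its fitted log2 fold change in IVO MII against GV was -4.84 ± 1.10, and -7.39 without IVO MII replicate 1 and -3.88 without IVO MII replicate 2. RAB19 had 7 and 10 counts in IVM MII, 2 and 4 counts in IVO MII and 26 and 18 counts in GV, and fitted values of -1.74 ± 0.68 in IVM MII and -2.75 ± 0.78 in IVO MII against GV. Calls of this role that rest on single libraries were these. RAB18 was not called in IVM MII against GV without GV replicate 1, GV replicate 2 or IVM MII replicate 2 (log2 fold changes 0.58 to 0.78), nor in IVO MII against GV without GV replicate 2 (log2 fold change 0.74). RAB2A was not called in IVM MII against GV without GV replicate 1 (log2 fold change 0.74). RAB6A was not called in IVM MII against GV without GV replicate 1, GV replicate 2, IVM MII replicate 1 or IVM MII replicate 2 (log2 fold changes 0.62 to 0.72), nor in IVM MII against IVO MII without GV replicate 1, GV replicate 2, IVM MII replicate 1, IVM MII replicate 2, IVO MII replicate 1 or IVO MII replicate 2 (log2 fold changes -0.69 to -0.54). RAB2B was not called in IVO MII against GV without GV replicate 1, IVM MII replicate 1, IVM MII replicate 2, IVO MII replicate 1 or IVO MII replicate 2 (log2 fold changes -0.87 to -0.34). RAB33B was not called in IVM MII against IVO MII without IVM MII replicate 1 (log2 fold change -0.91). RAB30 was not called in IVO MII against GV without GV replicate 1 or IVO MII replicate 2 (log2 fold changes 0.60 to 0.64). RAB19 was not called in IVM MII against GV without GV replicate 1, GV replicate 2, IVM MII replicate 1 or IVM MII replicate 2 (log2 fold changes -2.16 to -1.34), nor in IVO MII against GV without GV replicate 1 or IVO MII replicate 1 (log2 fold changes -2.45 to -2.41).

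Early endosomes, which receive material taken up from the surface, are marked by the RAB5 proteins, and their RAB genes were higher or not called in MII oocytes. Of 8 genes 7 were tested, and 2 were higher in IVM MII and 4 in IVO MII than in GV. That is 28.6% and 57.1%, where 25.6% and 28.1% of all tested genes were called higher. With 7 genes, these shares are not read as a result about the role. In IVM MII against IVO MII 0 were called, 1 had an unadjusted p under 0.05 by edgeR and 0 were called by DESeq2. The summed level was 292 and 273 CPM in IVM MII, 307 and 339 CPM in IVO MII and 153 and 135 CPM in GV. RAB5A is the main GTPase of early endosome fusion. It had 113 and 122 CPM in IVM MII, 141 and 115 CPM in IVO MII and 52.2 and 40.9 CPM in GV oocytes, with every MII library above both GV libraries and log2 fold changes of 1.34 ± 0.23, edgeR adjusted p = 0.000633, for IVM MII and 1.46 ± 0.23, edgeR adjusted p = 0.000225, for IVO MII. RAB20 acts on endosomes and phagosomes. It had 79.7 and 42.7 CPM in the IVM MII libraries, 49.7 and 87.7 CPM in IVO MII and 11.5 and 22.99 CPM in GV. For RAB20 the log2 fold changes were 1.83 ± 0.39 in IVM MII and 1.99 ± 0.39 in IVO MII against GV. The libraries within a group differed widely, yet MII and GV did not overlap. The values were 2.42 without GV replicate 2 for IVM MII and 2.58 without GV replicate 2 for IVO MII. RAB21 takes part in integrin uptake. It had 44.5 and 47.6 CPM in IVM MII, 51.6 and 56.5 CPM in IVO MII and 37.4 and 23.9 CPM in GV oocytes. For RAB21 the log2 fold changes were 0.59 ± 0.25 in IVM MII and 0.82 ± 0.25 in IVO MII against GV. RAB22A acts in sorting from endosomes. It had 27.6 and 35.8 CPM in IVM MII, 45.4 and 46.7 CPM in IVO MII and 28.5 and 23.1 CPM in GV oocytes. For RAB22A the log2 fold changes were 0.30 ± 0.23 in IVM MII and 0.84 ± 0.23 in IVO MII against GV. Both were called in IVO MII against GV and not in IVM MII against GV, and neither was called between the MII groups, so a difference between the routes is not shown. RAB21 was not called in IVO MII against GV without GV replicate 2 (log2 fold change 0.53). RAB22A was not called in IVO MII against GV without GV replicate 2 (log2 fold change 0.69). RAB5B is a relative of RAB5A. It had 20.2 and 19.2 CPM in IVM MII, 14.02 and 20.6 CPM in IVO MII and 18.2 and 15.6 CPM in GV oocytes. It passed the test in no comparison, nor did RAB5C and RAB31, which had at most 6.38 CPM in a library. RAB5A shares 13.9% of its exon length with an opposite-strand locus that had at most 19 counts in a library.

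In the late endosome and lysosome group, RAB7A, the GTPase of late endosomes, was the second most abundant RAB gene per kb and passed the test in no comparison. It had 339 and 299 CPM in IVM MII, 277 and 227 CPM in IVO MII and 268 and 214 CPM in GV oocytes, with log2 fold changes of 0.40 ± 0.23, edgeR adjusted p = 0.162, in IVM MII against GV, and 0.07 ± 0.23, edgeR adjusted p = 0.825, in IVO MII against GV. Library totals gave RAB7A a call in IVM MII against GV, at 0.70. RAB29 recruits the kinase LRRK2 to membranes. It had 216 and 203 CPM in the IVM MII libraries, 309.8 and 385 CPM in IVO MII and 113 and 138 CPM in GV. The groups did not overlap and IVO MII stood highest. For RAB29 the log2 fold changes were 0.74 ± 0.23 in IVM MII and 1.47 ± 0.23 in IVO MII against GV and -0.73 ± 0.23, edgeR adjusted p = 0.0351, in IVM MII against IVO MII. RAB32 acts on lysosome-related organelles and mitochondria. It had 3.33 and 1.99 CPM in IVM MII, 1.51 and 2.99 CPM in IVO MII and 7.69 and 12.6 CPM in GV oocytes, and was lower in both MII groups than in GV. For RAB32 the log2 fold changes were -1.93 ± 0.41 in IVM MII and -2.17 ± 0.42 in IVO MII against GV. RAB24 is linked to autophagy. It had 30 and 23 counts in IVM MII, 1 and 5 counts in IVO MII and 11 and 24 counts in GV. For RAB24 the log2 fold changes were -2.43 ± 0.81 in IVO MII against GV and 2.61 ± 0.79, edgeR adjusted p = 0.0327, in IVM MII against IVO MII. RAB24 had a log2 fold change of -1.77 without GV replicate 2 and -1.77 without IVO MII replicate 1 and -3.80 without IVO MII replicate 2 in IVO MII against GV, and 1.97 without IVO MII replicate 1 and 4.01 without IVO MII replicate 2 in IVM MII against IVO MII. RAB24 was not called in IVO MII against GV without GV replicate 2 or IVO MII replicate 1 (log2 fold change -1.77), nor in IVM MII against IVO MII without GV replicate 2, IVM MII replicate 1, IVM MII replicate 2 or IVO MII replicate 1 (log2 fold changes 1.97 to 2.66). RAB29 was not called in IVM MII against GV without GV replicate 1 or IVM MII replicate 1 (log2 fold changes 0.62 to 0.74), nor in IVM MII against IVO MII without IVM MII replicate 1, IVM MII replicate 2 or IVO MII replicate 2 (log2 fold changes -0.74 to -0.55). RAB38, a relative of RAB32, had at most 1.96 CPM and passed in no comparison; of the 8 genes of this group 5 were tested, with 1 higher and 1 lower in IVM MII than in GV, 1 higher and 2 lower in IVO MII than in GV, and 1 in each direction between the MII groups.

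RAB27A made up most of the summed level of the regulated secretion genes, which was 201 and 244 CPM in IVM MII, 186 and 197 CPM in IVO MII and 448 and 443 CPM in GV. Without RAB27A the sum was 53.1 and 42.7 CPM in IVM MII, 22.1 and 29.8 CPM in IVO MII and 46.7 and 50.3 CPM in GV, so the rest lay lower than GV in the IVO MII libraries while IVM MII and GV overlapped. In mouse oocytes RAB27A is needed for cortical granules to reach the cortex. RAB27A had 148 and 201 CPM in the IVM MII libraries, 164 and 167 CPM in IVO MII and 402 and 393 CPM in GV, or 174 ± 37.7 CPM in IVM MII, 166 ± 2.06 CPM in IVO MII and 397 ± 5.98 CPM in GV (SD, n = 2 each). Both GV libraries were above every MII library, and the MII groups overlapped. The log2 fold changes were -1.19 ± 0.23, edgeR adjusted p = 0.00136, in IVM MII against GV and -1.26 ± 0.23, edgeR adjusted p = 0.000643, in IVO MII against GV. Between the MII groups the value was 0.07 ± 0.23 in IVM MII against IVO MII; the calls against GV held without each library in turn. The gene lies on chromosome 7, 32288916 to 32382020, minus strand. RAB3B is a GTPase of secretory vesicles. It had 45.9 and 36.9 CPM in IVM MII, 9.89 and 17.3 CPM in IVO MII and 31.2 and 36.3 CPM in GV oocytes, so that IVO MII stood apart below the others. For RAB3B the log2 fold changes were 1.61 ± 0.28, edgeR adjusted p = 0.00205, in IVM MII against IVO MII and -1.31 ± 0.28 in IVO MII against GV. RAB3A takes part in cortical granule exocytosis in mouse eggs. It had 5.72 and 4.06 CPM in IVM MII, 6.34 and 6.15 CPM in IVO MII and 4.53 and 2.67 CPM in GV oocytes, and passed the test in no comparison, with 0.79 ± 0.34, edgeR adjusted p = 0.0653, in IVO MII against GV. RAB3A shares 12.7% of its exon length with MPV17L2 on the opposite strand, which had 149 to 393 counts in IVM MII, 70 to 131 in IVO MII and 332 to 713 in GV.

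RAB27B is the relative of RAB27A. It was rare, and here 1 library decides the size of the difference. It had 2 and 36 counts in IVM MII, 103 and 121 counts in IVO MII and 204 and 246 counts in GV, so both IVM MII libraries were below IVO MII and GV but differed widely from each other. The log2 fold change was -3.88 ± 0.73, edgeR adjusted p = 0.00115, in IVM MII against GV and -2.97 ± 0.72, edgeR adjusted p = 0.0117, in IVM MII against IVO MII. RAB27B had a log2 fold change of -2.86 without IVM MII replicate 1 and -7.23 without IVM MII replicate 2 against GV, and -1.95 without IVM MII replicate 1 and -6.33 without IVM MII replicate 2 against IVO MII. RAB27B was not called in IVM MII against GV without IVO MII replicate 2 (log2 fold change -3.85), nor in IVM MII against IVO MII without IVO MII replicate 1 or IVO MII replicate 2 (log2 fold changes -2.99 to -2.93). RAB3D acts in secretory granules. It had 1.09 and 0.312 CPM in IVM MII, 1.39 and 1.60 CPM in IVO MII and 2.45 and 2.13 CPM in GV oocytes, and was called lower in IVM MII than in GV at -1.68 ± 0.53; the value was -2.82 without IVM MII replicate 1 and -1.06 without IVM MII replicate 2. RAB3D was not called in IVM MII against GV without GV replicate 1, GV replicate 2 or IVM MII replicate 2 (log2 fold changes -1.78 to -1.06). RAB3C had 12 and 12 counts in IVM MII, 0 and 13 counts in IVO MII and 44 and 23 counts in GV, and was called lower in IVO MII than in GV at -2.30 ± 0.90, with -1.34 without IVO MII replicate 1 and -8.21 without IVO MII replicate 2. RAB3C was not called in IVO MII against GV without GV replicate 1, GV replicate 2, IVM MII replicate 1, IVM MII replicate 2 or IVO MII replicate 1 (log2 fold changes -2.70 to -1.34). Of the 8 genes of this role 6 were tested, and 3 were called lower than in GV in each MII group, not the same 3. They were RAB27A, RAB27B and RAB3D in IVM MII and RAB27A, RAB3B and RAB3C in IVO MII. RAB3C was at -1.87 ± 0.85 in IVM MII against GV and RAB3D at -0.61 ± 0.52 in IVO MII against GV, both without a call. Neither gene was called between the MII groups, so a difference between the routes is not shown for RAB3C or RAB3D. Between the MII groups, 1 was higher and 1 lower in IVM MII.

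Among the GTPases of cilia and those whose place is less settled, RAB28, known from cilia and photoreceptors, was the one with the largest rise against GV among RAB genes of at least 10 CPM. It had 55.4 and 46.4 CPM in IVM MII, 52.5 and 71.9 CPM in IVO MII and 14.5 and 12 CPM in GV oocytes, with no overlap between MII and GV, at 1.94 ± 0.25, edgeR adjusted p = 9.51e-05, in IVM MII and 2.23 ± 0.25, edgeR adjusted p = 2.66e-05, in IVO MII. RAB23 restrains hedgehog signalling in mouse. It had 28.4 and 32.6 CPM in IVM MII, 29.9 and 28.7 CPM in IVO MII and 23.1 and 14.9 CPM in GV oocytes. For RAB23 the log2 fold changes were 0.68 ± 0.25, edgeR adjusted p = 0.0421, in IVM MII and 0.63 ± 0.25, edgeR adjusted p = 0.0519, in IVO MII against GV. RAB23 was not called in IVM MII against GV without GV replicate 2, IVM MII replicate 1 or IVM MII replicate 2 (log2 fold changes 0.40 to 0.81). RAB40C joins a ubiquitin ligase. It had 19 and 4 counts in IVM MII, 3 and 2 counts in IVO MII and 76 and 72 counts in GV, far fewer in every MII library than in GV. For RAB40C the log2 fold changes were -3.13 ± 0.60 in IVM MII and -4.73 ± 0.72 in IVO MII against GV. The value in IVM MII was -4.38 without IVM MII replicate 1 and -2.49 without IVM MII replicate 2. RAB42 had 50 and 34 counts in IVM MII, 0 and 0 counts in IVO MII and 2 and 1 counts in GV. It was at least 9.75-fold higher in IVM MII than the floor of 3 counts per library in IVO MII, edgeR adjusted p = 0.00135, and its ratio to GV was 21.1 with a 95% counting interval of 6.96 to 104. RAB40B had 13.8 and 10.5 CPM in IVM MII, 7.84 and 11.8 CPM in IVO MII and 9.29 and 9.53 CPM in GV oocytes, and RAB40A at most 0.845 CPM, and neither passed the test in any comparison. RAB40A has a near-identical copy, and reads of such copies cannot be assigned with certainty. Of these 7 genes 6 were tested, with 3 higher and 1 lower in IVM MII than in GV, 1 in each direction in IVO MII against GV, and 1 higher in IVM MII than in IVO MII.

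IVM MII against IVO MII asks whether oocytes matured in culture hold other RAB transcripts than oocytes matured in the animal. Of the 56 tested RAB genes 7 were higher in IVM MII and 10 were lower. That is 30.4% of them, where 24.6% of all tested genes were called, 14.3% as higher and 10.3% as lower, so this share too is near the background. The median log2 fold change was 0.02 over the tested RAB genes and 0.02 over all genes. The RAB median was -0.15 without IVO MII replicate 1 and 0.30 without IVO MII replicate 2, beside 0.06 and 0.09 over all genes. Genes higher in IVM MII were RAB1A, RAB2B, RAB6B, RAB3B, RAB24, RAB42 and RAB3GAP2, and genes lower were RAB8B, RAB12, RAB13, RAB25, RAB6A, RAB33B, RAB29, RAB27B, RAB11FIP1 and RAB11FIP2. The genes higher in IVM MII than in IVO MII include 5 that were called lower in IVO MII than in GV and not called in IVM MII against GV: RAB1A, RAB2B, RAB6B, RAB3B and RAB24. The genes lower include 5 that were called higher in IVO MII than in GV and not called in IVM MII against GV: RAB12, RAB25, RAB33B, RAB11FIP1 and RAB11FIP2. Of these calls in IVO MII against GV, those of RAB2B, RAB24 and RAB11FIP2 rested on single libraries. Both comparisons use the same IVO MII libraries, so their calls are not independent. No share of all tested genes is given for either pattern, so nothing particular to the RAB genes is read from it. Calls of 7 of the 17 held without each library in turn, those of RAB1A, RAB2B, RAB3B, RAB6B, RAB13, RAB42 and RAB11FIP1. The number lower was 4 without IVM MII replicate 1, 5 without IVM MII replicate 2, 5 without IVO MII replicate 1 and 6 without IVO MII replicate 2. Library totals move the median of all genes to 0.24. The RAB genes then split into 8 higher and 6 lower, and 75.8% of the calls over all genes were higher, beside 58.0% with TMM.

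**Figure D4:**
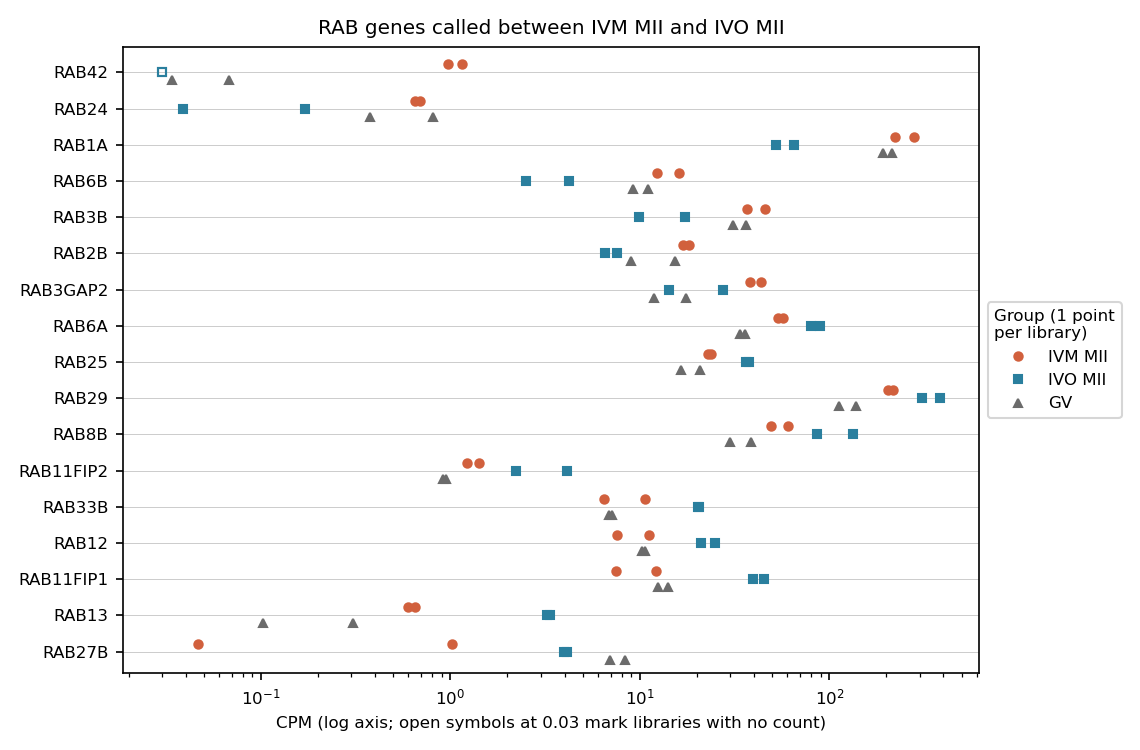
CPM (log axis) of the 17 RAB genes called between IVM MII and IVO MII, 1 point per library, ordered by log2 fold change with genes higher in IVM MII at the top; an open symbol marks a library with no count. For RAB1A, RAB6B and RAB3B the IVM MII and GV points lie close together and above the IVO MII points, and for RAB11FIP1 and RAB12 the IVO MII points lie above the rest.

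The genes that carry a RAB name without being GTPases regulate or read out Rabs, and 8 of 9 were tested. RAB3GAP1 and RAB3GAP2 form a complex that inactivates RAB3 and activates RAB18. RAB3GAP1 had 129 and 122 CPM in the IVM MII libraries, 94.2 and 63.4 CPM in IVO MII and 41.4 and 30.2 CPM in GV. For RAB3GAP1 the log2 fold changes were 1.81 ± 0.26, edgeR adjusted p = 0.0002, in IVM MII and 1.14 ± 0.25, edgeR adjusted p = 0.00242, in IVO MII against GV. RAB3GAP2 had 38.1 and 43.4 CPM in IVM MII, 27.5 and 14.3 CPM in IVO MII and 17.4 and 11.9 CPM in GV oocytes. For RAB3GAP2 the log2 fold changes were 1.47 ± 0.32, edgeR adjusted p = 0.00258, in IVM MII against GV and 0.51 ± 0.31 in IVO MII against GV. Both subunits were thus highest in IVM MII, although RAB3GAP1 was not called between the MII groups (0.67 ± 0.25, edgeR adjusted p = 0.0706, IVM MII against IVO MII) and RAB3GAP2 was (0.96 ± 0.31, edgeR adjusted p = 0.0428). With library totals, without a filter on low counts, with a filter at 10 CPM or with the replicate number as a block, RAB3GAP1 was called there too. RAB3GAP2 was not called in IVM MII against IVO MII without IVM MII replicate 1, IVM MII replicate 2 or IVO MII replicate 2 (log2 fold changes 0.57 to 1.08). RAB3IP is an exchange factor of RAB8 also known as Rabin8. It had 5.04 and 6.65 CPM in IVM MII, 3.90 and 3.70 CPM in IVO MII and 11.5 and 17.4 CPM in GV oocytes, lower in both MII groups than in GV. For RAB3IP the log2 fold changes were -1.31 ± 0.30 in IVM MII and -1.92 ± 0.31 in IVO MII against GV. RAB3IP was not called in IVM MII against GV without GV replicate 2 (log2 fold change -0.97). RAB11FIP proteins bind active RAB11 and link it to motors and sorting. RAB11FIP1 had 12.2 and 7.47 CPM in IVM MII, 45.3 and 39.3 CPM in IVO MII and 14.1 and 12.5 CPM in GV oocytes, so IVO MII stood apart above IVM MII and GV. For RAB11FIP1 the log2 fold changes were -2.10 ± 0.28, edgeR adjusted p = 0.000351, in IVM MII against IVO MII and 1.67 ± 0.27 in IVO MII against GV. RAB11FIP2 binds the motor MYO5B. It had 1.23 and 1.42 CPM in IVM MII, 4.13 and 2.21 CPM in IVO MII and 0.919 and 0.947 CPM in GV oocytes. For RAB11FIP2 the log2 fold changes were -1.26 ± 0.43, edgeR adjusted p = 0.0498, in IVM MII against IVO MII and 1.76 ± 0.44 in IVO MII against GV. RAB11FIP2 was not called in IVO MII against GV without IVO MII replicate 1 (log2 fold change 1.25), nor in IVM MII against IVO MII without GV replicate 1, GV replicate 2, IVM MII replicate 1, IVM MII replicate 2 or IVO MII replicate 1 (log2 fold changes -1.36 to -0.74). RAB11FIP4 had 45.6 and 33.97 CPM in IVM MII, 45.01 and 62.3 CPM in IVO MII and 33.1 and 45.3 CPM in GV oocytes. RAB11FIP5 had at most 5.16 CPM in a library and RAB11FIP3 at most 0.408 CPM. These 3 passed the test in no comparison.

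Close relatives with overlapping functions differed in balance between the groups, expressed per kb as a share of their family, which is a description without a test. RAB8B made up 47.9% and 58.6% in IVM MII, 78.99% and 68.4% in IVO MII and 43.4% and 38.7% in GV of the RAB8 pair, so RAB8A led in GV and RAB8B in IVO MII. RAB4A made up 55.5% and 71.3% in IVM MII, 79.4% and 68.2% in IVO MII and 34.2% and 31.5% in GV of the RAB4 pair, the larger part in MII libraries and the smaller in GV. RAB6B made up 16.5% and 13.8% in IVM MII, 1.91% and 3.55% in IVO MII and 15.03% and 18.6% in GV of the RAB6 pair, lowest in IVO MII. In the RAB3 family RAB3A took 27.96% and 26.3% in IVM MII, 60.7% and 48.4% in IVO MII and 28.1% and 17.3% in GV, with RAB3B taking most of the rest, so that RAB3A took more in IVO MII than in the other groups. RAB5A took 80.9% and 84.1% in IVM MII, 88.03% and 78.9% in IVO MII and 69.03% and 65.4% in GV of the RAB5 family. RAB11A took 91.9% and 94.99% in IVM MII, 87.9% and 90.7% in IVO MII and 97.9% and 97.6% in GV of RAB11A, RAB11B and RAB25 together. Reads shared by paralogs can shift such shares, and aligning without splitting reads over introns can place junction reads in processed pseudogenes.

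**Figure D5:**
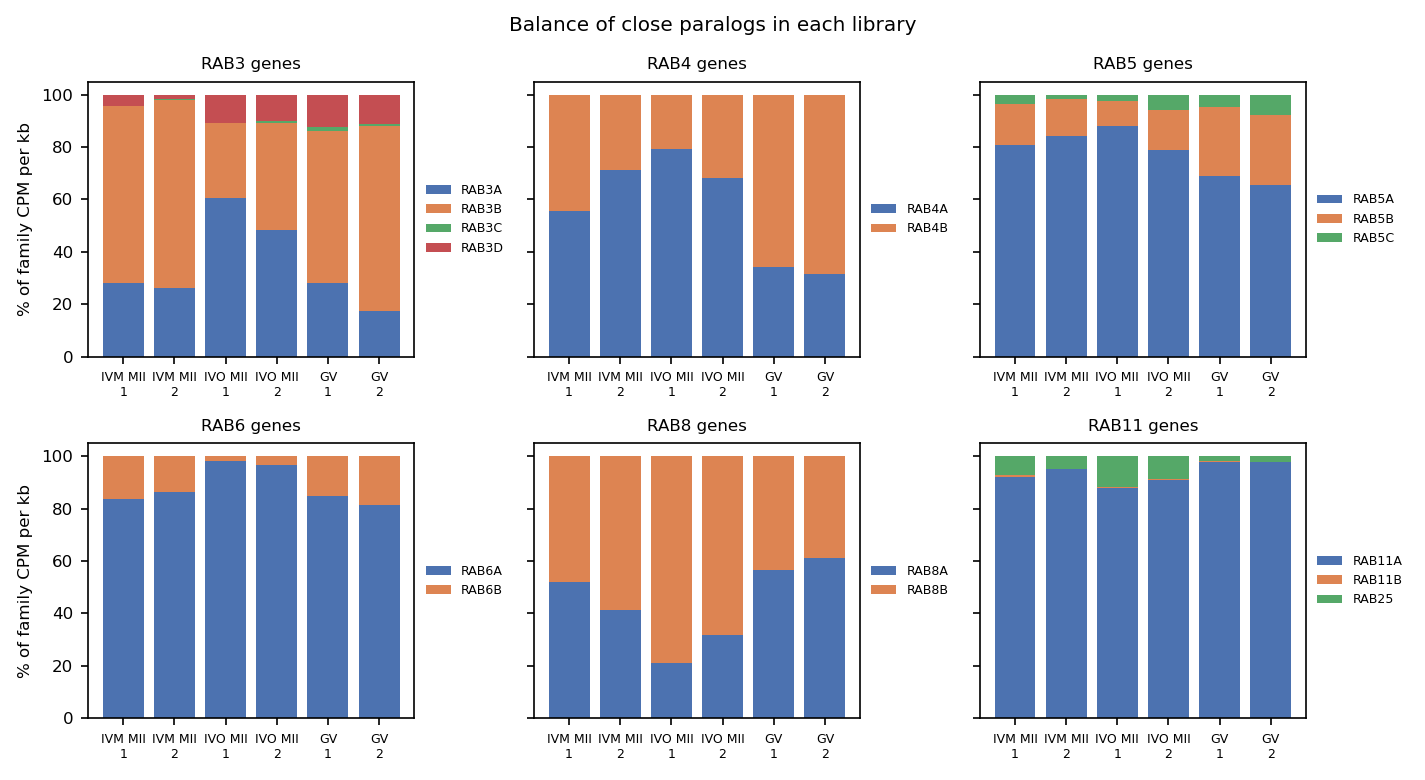
Share of each close RAB paralog in the CPM per kb of its family, 1 bar per library for IVM MII, IVO MII and GV, in 6 families. The RAB8B share is highest in the IVO MII bars, the RAB6B share is lowest there, and RAB4A holds the larger part in MII bars and the smaller part in GV bars.

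Too few counts for a test were found for 14 of the 70 genes, of which 13 are GTPase genes. RAB17, RAB44, RAB7B and RAB9B had 0 counts in all 6 libraries, which allows up to 3 counts per library, or 0.0694 to 0.116 CPM. The other 10 were RAB41, RAB39A, RAB9A, RAB26, RAB34, RAB3IL1, RAB37, RAB36, RAB39B and RAB33A, with at most 24 counts in a library, that of RAB39A in IVM MII replicate 1. RAB36 had 9 and 14 counts in IVM MII, 0 and 1 counts in IVO MII and 6 and 1 counts in GV, and RAB37 had 0 and 0 counts in IVM MII, 8 and 1 counts in IVO MII and 1 and 2 counts in GV. RAB41 shares 23.0% of its exon length with PDZD11 on the opposite strand, which had 655 to 675 counts in IVM MII, 409 to 419 in IVO MII and 1722 to 1954 in GV. In all, 9 RAB genes share exon bases with another gene. Among them, RAB4A shares 15.1% of its exon length with SPHAR on the same strand. SPHAR had 0 counts, and whether reads in the shared bases were counted for RAB4A was not tested.

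The proteins that load, activate, inactivate and read out Rabs form a list of 156 genes in the table outside the name rule, 139 of them tested. Against GV, 38 rose and 27 fell in IVM MII (46.8%), and 46 rose and 31 fell in IVO MII (55.4%). Between the MII groups 13 were higher and 15 lower in IVM MII (20.1%). Each share is close to or below that of all tested genes. Without GV replicate 2, the counts in IVM MII against GV were 23 higher and 16 lower. Between the MII groups the number higher was 5 without IVM MII replicate 1, 7 without IVM MII replicate 2 and 7 without IVO MII replicate 1, and the number lower was 9 without IVM MII replicate 1 and 6 without IVM MII replicate 2. The median log2 fold changes were 0.19, 0.17 and -0.0033 in these comparisons. A list of 14 tested genes held 8 that prenylate, escort, extract or bind Rabs and 6 YIPF genes, which encode Golgi membrane proteins. In IVM MII, RABGGTB, YIPF5 and YIPF6 were higher than in GV and GDI2, RABIF, RABAC1, YIPF1 and YIPF3 lower. In IVO MII the same 8 were called in the same directions, with CHML higher and RABGGTA lower besides. GDI2 is a GDP dissociation inhibitor that keeps inactive Rabs soluble. It had 409 and 561 CPM in the IVM MII libraries, 790.5 and 343 CPM in IVO MII and 2296 and 2243 CPM in GV. Both GV libraries were far above every MII library (-2.23 ± 0.37, edgeR adjusted p = 0.000513, in IVM MII and -2.0 ± 0.36, edgeR adjusted p = 0.000614, in IVO MII against GV). In IVO MII against GV it was -2.71 without IVO MII replicate 1. RABIF is a Rab-binding protein also called MSS4. It had 28.3 and 30.7 CPM in IVM MII, 58.9 and 60.9 CPM in IVO MII and 114 and 112 CPM in GV oocytes, and was lower in IVM MII than in either other group. For RABIF the log2 fold changes were -1.94 ± 0.21, edgeR adjusted p = 3.08e-05, against GV and -1.02 ± 0.21, edgeR adjusted p = 0.00433, against IVO MII. YIPF1 is a Golgi membrane protein of the family that binds Rabs. It had 4.79 and 3.61 CPM in IVM MII, 2.47 and 3.12 CPM in IVO MII and 44.2 and 37.1 CPM in GV oocytes. For YIPF1 the log2 fold changes were -3.27 ± 0.28 in IVM MII and -3.86 ± 0.29 in IVO MII against GV. RABGGTB is the catalytic subunit of the enzyme that prenylates Rabs. It had 30.2 and 38.8 CPM in IVM MII, 34.3 and 26.1 CPM in IVO MII and 14.2 and 12 CPM in GV oocytes. For RABGGTB the log2 fold changes were 1.39 ± 0.25 in IVM MII and 1.20 ± 0.25 in IVO MII against GV.

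Of 43 tested exchange factors, 10 were higher and 11 lower in IVM MII than in GV. In IVO MII 14 were higher and 10 lower than in GV, and 7 were higher and 3 lower in IVM MII than in IVO MII. These are 48.8, 55.8 and 23.3% called, beside 50.3, 58.5 and 24.6% of all tested genes. FLCN is folliculin, which carries a DENN domain and regulates lysosomal nutrient signalling. Its place among the exchange factors is by the list alone, and no exchange activity on a Rab was measured. FLCN was the gene of this list with the lowest adjusted p between the routes. It had 3.70 and 4.23 CPM in the IVM MII libraries, 41.4 and 44.9 CPM in IVO MII and 10.9 and 10.2 CPM in GV. Its IVM MII libraries were below GV and its IVO MII libraries above. For FLCN the log2 fold changes were -1.41 ± 0.24, edgeR adjusted p = 0.000619, in IVM MII against GV, 2.03 ± 0.24, edgeR adjusted p = 3.34e-05, in IVO MII against GV and -3.44 ± 0.25, edgeR adjusted p = 9.69e-06, in IVM MII against IVO MII. Subunits of TRAPP, the complex that activates RAB1, did not move together. TRAPPC12 had 1.43 and 1.02 CPM in IVM MII, 1.55 and 1.73 CPM in IVO MII and 11.4 and 11.1 CPM in GV oocytes. TRAPPC4 had 24.7 and 31.2 CPM in IVM MII, 12.8 and 12.6 CPM in IVO MII and 47.04 and 58.6 CPM in GV oocytes. TRAPPC10 had 37.3 and 37.6 CPM in IVM MII, 32.3 and 24.9 CPM in IVO MII and 17.8 and 11.1 CPM in GV oocytes. TRAPPC12 and TRAPPC4 were lower in both MII groups than in GV and TRAPPC10 higher, and TRAPPC4 was higher in IVM MII than in IVO MII (1.14 ± 0.24, edgeR adjusted p = 0.00489). Of 35 tested GTPase activating proteins, 11 were higher and 5 lower in IVM MII than in GV. In IVO MII 11 were higher and 8 lower than in GV, and 2 were higher and 3 lower in IVM MII than in IVO MII. These are 45.7, 54.3 and 14.3% called, beside the same shares of all tested genes. TBC1D14 acts on recycling endosomes in autophagy. It had 284 and 197 CPM in IVM MII, 354 and 401 CPM in IVO MII and 88.4 and 90.8 CPM in GV oocytes. For TBC1D14 the log2 fold changes were 1.42 ± 0.24 in IVM MII and 2.07 ± 0.25 in IVO MII against GV.

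Of 47 tested effectors, 14 were higher and 6 lower in IVM MII than in GV. In IVO MII 17 were higher and 7 lower than in GV, and 3 were higher and 6 lower in IVM MII than in IVO MII. These are 42.6, 51.1 and 19.1% called, beside 50.3, 58.5 and 24.6% of all tested genes. SPIRE1 is an actin nucleator that in mouse oocytes sits on RAB11A vesicles. It had 54.2 and 75.5 CPM in the IVM MII libraries, 35.7 and 31.4 CPM in IVO MII and 10.04 and 10.8 CPM in GV. GV was lowest and IVM MII highest. For SPIRE1 the log2 fold changes were 2.64 ± 0.25, edgeR adjusted p = 1.16e-05, in IVM MII and 1.69 ± 0.24, edgeR adjusted p = 0.000127, in IVO MII against GV. In IVM MII against IVO MII SPIRE1 was at 0.95 ± 0.23, edgeR adjusted p = 0.0126. SPIRE1 was not called in IVM MII against IVO MII without IVM MII replicate 2 (log2 fold change 0.70). MYO5B is the motor of RAB11A vesicles. It had 17.98 and 27.6 CPM in IVM MII, 23.1 and 19.02 CPM in IVO MII and 24.8 and 23.6 CPM in GV oocytes, and passed the test in no comparison; it lies outside the rule for named genes and was chosen after its values were seen. SYTL2 is a RAB27 effector that tethers vesicles at the plasma membrane. It had 81.9 and 83.03 CPM in IVM MII, 246 and 199.9 CPM in IVO MII and 71.6 and 54.2 CPM in GV oocytes, with IVO MII above the other groups (1.83 ± 0.23, edgeR adjusted p = 6.09e-05, in IVO MII against GV and -1.44 ± 0.23, edgeR adjusted p = 0.00118, in IVM MII against IVO MII). SYTL4 is another RAB27 effector. It had 74.9 and 77.1 CPM in IVM MII, 44.5 and 51.99 CPM in IVO MII and 46.2 and 43.2 CPM in GV oocytes, with IVM MII highest. For SYTL4 the log2 fold changes were 0.77 ± 0.21 in IVM MII against GV and 0.66 ± 0.21, edgeR adjusted p = 0.0398, in IVM MII against IVO MII. SYTL4 was not called in IVM MII against IVO MII without GV replicate 1, GV replicate 2, IVM MII replicate 1, IVM MII replicate 2, IVO MII replicate 1 or IVO MII replicate 2 (log2 fold changes 0.55 to 0.78). VPS41 is a subunit of the tether HOPS that RAB7 recruits. It had 5.42 and 5.57 CPM in IVM MII, 13.6 and 8.35 CPM in IVO MII and 19.9 and 16.2 CPM in GV oocytes. For VPS41 the log2 fold change was -1.72 ± 0.30, edgeR adjusted p = 0.000685, in IVM MII against GV.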

How the data were processed

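Libraries were full-length, PCR-amplified Smart-seq libraries primed with oligo-dT and read in pairs, per the labels' protocols. Reads passed fastp and FastQC, Bowtie2 alignment, SAMtools and counting, tools listed per the submitters' processing notes without an order. The deposited values are raw counts per gene, made with featureCounts 2.0.1 per exon and gene, with no strand setting, from the RefSeq annotation of macFas5, per the file headers; the deposited exon lengths, a further column, were used only for levels per kb. Bowtie2 does not split reads over introns, and PCR reads without molecular identifiers are not independent molecules, so intervals and floors cover counting error only. 0 rows lacked a gene name. 1 locus identifier carries the symbol RAB40AL in a later assembly and was not counted as a RAB gene. edgeR 4.0.16 (R 4.3.3, limma 3.58.1) kept 15815 genes by filterByExpr, left out 12349, computed TMM factors of 0.902 to 1.22 and fitted its quasi-likelihood test to all 6 libraries with group as the term and robust dispersions (biological coefficient of variation 0.232, 3 residual degrees of freedom, median prior 8.81). Tests were two-sided, with Benjamini-Hochberg adjustment over all tested genes of a comparison at 0.05. On data simulated for IVM MII against GV with 15333 genes, 100 genes were changed 2-fold and 100 were changed 4-fold. The procedure recovered 26% of the 2-fold and 83% of the 4-fold changes, and 4.39% of its calls were false. In the real comparison 50.3% of tested genes were called, so these rates need not carry over. The alternatives were RLE factors, library totals, DESeq2 1.42.0, no filter on low counts, a stricter filter asking 10 CPM in 2 libraries, a fit to the 4 libraries compared, an offset for gene length, the replicate number as a block, and each library left out; where a group then has 1 library, that library is assumed to vary like the other groups. The RAB genes and the lists of roles, regulators and markers were chosen with earlier results of these data known. Genes were named if they were RAB genes with an adjusted p under 0.05, a log2 fold change of at least 1 in size and 10 CPM or more in the higher group mean, the 5 most abundant per kb, the most abundant of each role or a listed oocyte or endosome gene, and for regulators up to 3 per direction and sublist by adjusted p with at least 10 CPM; every other RAB gene is given by counts or values, chosen after they were seen. Figures were drawn with matplotlib 3.10.9.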

Additional observations from a re-analysis of the deposited data

Results flagged for a closer look

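2 genes on the list of Rab regulators moved in opposite directions against GV by the 2 maturation routes. The difference between the routes passed edgeR's test for each. Of all 15815 tested genes, 205 (1.3%) were called in opposite directions against GV, so the number of regulators is not read as a result. FLCN averaged 3.97 ± 0.375 CPM in IVM MII, 43.2 ± 2.48 CPM in IVO MII and 10.6 ± 0.434 CPM in GV (SD, n = 2 each), with a log2 fold change of -3.44 ± 0.25, edgeR adjusted p = 9.69e-06, in IVM MII against IVO MII. TRAPPC2, a TRAPP subunit, averaged 3.87 ± 1.08 CPM in IVM MII, 14.3 ± 0.159 CPM in IVO MII and 7.11 ± 0.134 CPM in GV, with -1.88 ± 0.29, edgeR adjusted p = 0.000871, in IVM MII against IVO MII. Neither call between the MII groups ended when any 1 library was left out. No fold change against GV is given here for TRAPPC2. Whether its direction against GV holds without each library was not checked.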

How the results depend on the processing

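The replicate number as a block gave 15 RAB genes higher and 9 lower in IVM MII against GV, 23 and 14 in IVO MII against GV, and 8 and 7 in IVM MII against IVO MII; the labels link no same-numbered libraries, and the correlations of their deviations were -0.144, 0.178 and -0.114. Block fits to the 4 libraries compared, chosen after seeing the data, gave with crossed IVM MII numbers 15 and 12 in IVM MII against GV and 8 and 10 in IVM MII against IVO MII; with the numbers as labelled they gave 10 and 12, and 6 and 6, and 6 and 8 regulators between the MII groups. The strict filter of 10 CPM, which tests fewer genes, left 8 higher and 5 lower RAB genes in IVM MII against GV, 9 lower in IVO MII against GV and 5 lower in IVM MII against IVO MII, and of the regulators 20 higher in IVM MII against GV and 8 higher in IVM MII against IVO MII. Library totals gave 24 RAB genes higher in IVM MII against GV, and in IVM MII against IVO MII 6 RAB genes and 8 regulators lower; the cause was not tested. Leaving out each library gave, in IVM MII against GV, 10 to 18 RAB genes higher and 6 to 11 lower, and 23 to 44 regulators higher and 16 to 30 lower. In IVO MII against GV the ranges were 17 to 22 and 11 to 14 for RAB genes and 35 to 47 and 22 to 29 for regulators, and in IVM MII against IVO MII 5 to 7 and 4 to 7 for RAB genes and 5 to 10 and 6 to 15 for regulators. DESeq2 called 12 higher and 9 lower, 23 and 14, and 6 and 9 RAB genes in the 3 comparisons. No RAB gene or named regulator changed sign in a comparison where it was called with or without the alternative; 86 values of RAB genes called in neither did, such as RAB8A in IVM MII against GV, at -0.03 with TMM and 0.28 with library totals. With 2 libraries per group, 34 of the 79 calls of RAB genes ended without 1 library, 19 of the 62 of 2-fold or more and 15 of the 17 of less, and counts under about 10 limit the rarest RAB genes.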
